A study of Homo sapiens with 4 samples.

Results

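PRAME, the preferentially expressed antigen in melanoma, is 1 of 19561 named genes on the array and is measured by 2 of its 41000 probes. It was chosen by its measured difference between a line resistant to arsenic trioxide (ATO) and the naive line it came from, so that this difference is given below as a description and without a test. NB4 is an established human cell line of acute promyelocytic leukemia (APL), and the question of the comparison was which genes differ in cells that have become less sensitive to ATO. The groups were naive NB4 cells (2 flasks) and the ATO resistant line (2 flasks), which is written as NB4-VM-AsR1 in the labels and as NB4-EV-AsR1 in the methods. The names are taken for the same clone, which neither source states. Both lines were cultured in RPMI with fetal bovine serum, and the resistant cells had been kept without ATO for a week before RNA was taken. The resistant line stands for a single clone, so that a difference of the clone and a difference that came with resistance cannot be told apart. RNA of each flask was labeled with a single dye and hybridized to its own Agilent whole genome array. All 4 arrays lay on 1 slide, naive flasks first and resistant flasks last, and position and line cannot be told apart.

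PRAME is an antigen that cytotoxic T cells recognize on tumor cells. Among normal tissues it is found mainly in the testis, and it is widely expressed in melanoma and in part of the acute leukemias, APL among them. The protein has leucine rich repeats and serves as a substrate receptor of a ubiquitin ligase built on CUL2, and it has been described as a repressor of retinoic acid receptor signaling that acts with EZH2. In tumor cells its expression has been tied to the methylation of DNA at its promoter.

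Both PRAME probes lie on chromosome 22 of hg19, the build named in the file headers, and match a PRAME transcript on the minus strand. A_23_P166360 covers chr22:22890206-22890265, begins at base 2039 of the transcript and is 35% G or C. A_24_P216361 covers chr22:22891002-22891061, begins at base 1243 and is 51.7% G or C. They are shown because every PRAME value below is the hybridization to these oligos, and capitals mark the longest run of bases that a probe shares with any of the 40998 other probes.
A_23_P166360 (its first 30 bases): tggGGAGATACATCTTAtagagttagaaat
A_24_P216361 (all 60 bases): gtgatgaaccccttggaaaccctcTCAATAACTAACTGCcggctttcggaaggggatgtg
The shared runs were 14 bases, with a probe of ZNF430, and 15 bases, with a probe of SCGB2A1. With probes of the PRAMEF genes, the relatives of PRAME on chromosome 1, the longest shared run was 6 bases for the first oligo and 11 for the second, the latter with PRAMEF16.

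PRAME gave low signals in naive NB4 cells and far higher ones in the resistant line on both probes. On A_23_P166360 the background-subtracted signal was 29.8 and 40.8 in the naive flasks and 2558 and 2078 in the resistant flasks. The error that the scanner software gave for these signals was 13.6% and 11.9% in the naive flasks and 10.0% in both resistant flasks. The spot's mean signal was 2.14 and 3.10 times its local background in the naive flasks, and 88.7 and 99.3 times in the resistant flasks. The probe was well above background on all 4 arrays and saturated on none, so that the naive line had a low PRAME signal on this probe and not an undetected one. The 2 resistant flasks lay far above both naive flasks.

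On the scale used below, the log2 signal minus the 75th percentile of its array, A_23_P166360 had the values −5.18 and −4.46 in the naive flasks and 1.29 and 1.30 in the resistant flasks. The naive mean was −4.82 ± 0.51 and the resistant mean 1.30 ± 0.01 (SD, n = 2 each). The difference was 6.11, or 69.3-fold, and it ran from 5.75 to 6.48 over the 4 pairs of a naive and a resistant flask. The naive flasks differed from each other by 0.72 on this probe and the resistant flasks by 0.01, so that the flasks of a line lay much closer together than the lines.

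The second probe, A_24_P216361, gave the same order of the lines. Its signal was 8.66 and 8.75 in the naive flasks, where neither array measured it well above background, and 504 and 263 in the resistant flasks. Its log2 values were −6.96 and −6.68 in the naive flasks and −1.05 and −1.68 in the resistant flasks. The naive mean was −6.82 ± 0.20 and the resistant mean −1.37 ± 0.44 (SD, n = 2 each), a measured difference of 5.45. As the naive signals give only an upper bound, the resistant line was at least 29.7-fold higher on this probe, where the bound sets the resistant mean against the lowest signal well above background on each naive array. A_23_P166360 exceeded A_24_P216361 by 1.78 and 2.22 on the naive arrays and by 2.34 and 2.98 on the resistant arrays. The naive gaps rest on a signal not well above background, and levels of different probes are not comparable.

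**Figure D1:**
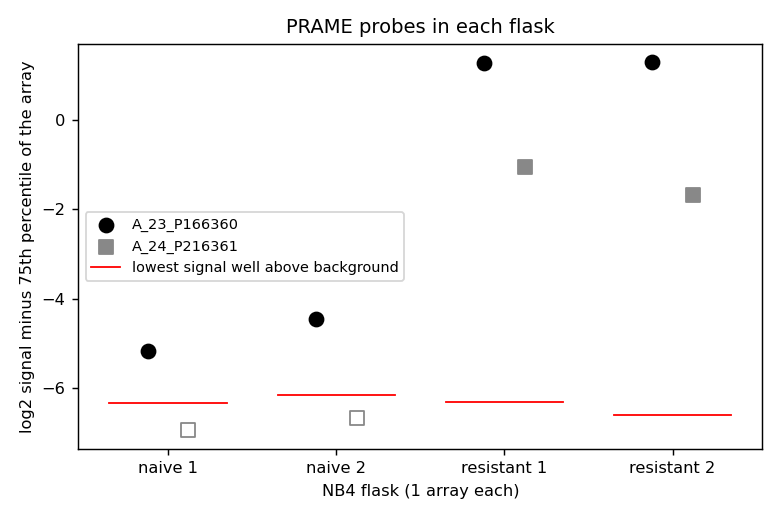
The log2 signal minus the 75th percentile of the array (vertical axis) is plotted for each PRAME probe in each of the 4 flasks, with open symbols where a probe was not well above background and red lines at the lowest signal well above background on that array. Both probes are higher in both resistant flasks, and A_23_P166360 lies above the red line also in the naive flasks, at −5.18 and −4.46.

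The position of the spots on the array was checked with their neighbors. Within 2 rows and 2 columns of A_23_P166360 there were 22 other spots, whose log2 differences between the lines ran from −3.44 to 0.95 with a median of −0.10. Around A_24_P216361 there were 24, with differences from −4.34 to 0.72 and a median of −0.16. Around each PRAME spot 1 of 14 tested neighbors was called. The lowest neighbors were far below 0, and none was as far above 0 as the PRAME spots.

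The size of the PRAME difference depended on the processing of the signals. With the normexp background correction, which was run with an added offset of 50, the difference on A_23_P166360 was 3.90, and 4.62 when unusually bright local backgrounds were first reset. On A_24_P216361 it was 1.97 and 2.60.

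The genes that neighbor PRAME were compared in the same way, as the local background for its difference. Over the whole array 28221 probes were tested with limma, each of them well above background in both flasks of a line, and 1487 (5.27%) were called, that is, passed a Benjamini-Hochberg adjusted p of 0.05 with a difference of 2-fold or more. Taking each named gene by its probe with the highest mean, 903 of 14667 genes (6.16%) were called, 421 (2.87%) higher and 482 (3.29%) lower in the resistant line, and the median difference of all genes was 0.00. With 2 flasks a line an exact two-sided permutation test cannot go below p = 0.333 for a single gene, so that each call leans on a spread estimated by limma from many probes.

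Within 1 Mb of PRAME on hg19, 54 other probes lie on the array, and 25 named genes have a probe there. For 15 of these genes the probe with the highest mean lies in the window and was tested, 5 are represented by a brighter probe elsewhere, and 5 were not tested. Of the 15 genes, 3 (20%) were called, all higher in the resistant line, beside 6.16% of all genes. For 2 of the 3 the direction was set by the filter, since they were well above background in the resistant flasks only, and among the 11 genes measured on all 4 arrays 0 were called with limma (3 at an unadjusted p below 0.05). Their median difference was 0.63 and 12 of 15 were above 0. Of the 39 tested probes, 4 (10.3%) were called, beside 5.27% of all probes.

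None of the genes next to PRAME was called with all flasks. ZNF280A was called when naive flask 2 was left out, in a fit that rests on naive flask 1 alone. ZNF280A, a zinc finger gene whose probe lies 21.4 kb away, had the values −6.53, −5.85, −5.53 and −5.49 in naive flasks 1 and 2 and resistant flasks 1 and 2, in that order here and below. Its difference was 0.68 (SE 0.30; limma adjusted p = 0.308), and its signal in naive flask 1 was not well above background. ZNF280B, its neighbor at 48.0 kb, had a naive mean of −5.14 ± 0.19 and a resistant mean of −4.68 ± 0.03 (SD, n = 2 each), a difference of 0.46 (limma adjusted p = 0.363). The resistant flasks were the higher ones in both genes, but by less than 1 on the log2 scale. On the other side the pseudogene POM121L1P, at 83.7 kb, had a difference of −0.20. Within 250 kb, 0 of 3 genes and 0 of 8 tested probes were called with limma. Beside 6.16% of all genes and 5.27% of all probes, nothing is read from counts this small.

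The called neighbors lay farther away, and 2 of the 3 are described. LOC100287891, at 352 kb, was not well above background in the naive flasks (−8.48 and −8.39) and was so in the resistant flasks (−6.12 and −5.84), at least 1.21-fold higher (limma adjusted p = 0.00554). CCDC116, at 899 kb, behaved likewise with −7.48, −8.38, −5.39 and −4.87, at least 2.19-fold higher (limma adjusted p = 0.0190). A called probe without a gene name, A_23_P43979 at 358 kb, had a difference of 1.71 (limma adjusted p = 0.0315). Without resistant flask 2 none of the 3 was called and RSPH14 was, and 2 of the 3 were called without resistant flask 1. The count was also 0 with the normexp correction, where CCDC116 had a difference of 0.61 and LOC100287891 of 0.49.

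RSPH14, a gene of the ciliary radial spoke at 511 kb, had a difference of 2.58 that came from a single flask, with −5.03 and −4.99 in the naive flasks, −0.06 in resistant flask 1 and −4.79 in resistant flask 2, and it was not called (limma adjusted p = 0.410). Toward higher coordinates, GNAZ, a G protein alpha subunit, had −0.45 and −1.80 on its probes, RAB36, a small GTPase, 0.07, and BCR, the fusion partner of ABL1 in chronic myeloid leukemia, 0.27, and none was called. Toward lower coordinates, the probes placed there for BMS1P20, BMS1 and ABHD17A had differences of 0.68, 0.30 and 0.39, and none was called. These genes have brighter probes that are not placed in the window. PPM1F had −0.20, YPEL1 0.86, PPIL2 0.84 and SDF2L1 0.63. PRAMEL, at 541 kb, and VPREB1, at 291 kb, were not well above background on any array.

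Just outside the limit of 1 Mb lay 2 probes of IGLL1, which encodes part of the surrogate light chain of early B cells. Its probe at 1025 kb had −2.38, −2.49, 1.41 and 1.57, a difference of 3.92 (limma adjusted p = 0.00136). The probe at 1026 kb had −3.41, −5.37, 1.22 and 1.29, a difference of 5.64 (limma adjusted p = 0.00978). Both were called, with resistant flasks above naive flasks on each. The third IGLL1 probe, whose mean was the highest and which therefore stands for the gene, was placed 2825 kb from PRAME and rose by 3.22 (limma adjusted p = 0.00256). As such probes can hybridize to related immunoglobulin lambda sequences, its place is uncertain. VPREB1, which encodes the partner of IGLL1 in the surrogate light chain, had values of −6.44, −6.63, −6.57 and −6.54, with no separation of the lines.

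**Figure D2:**
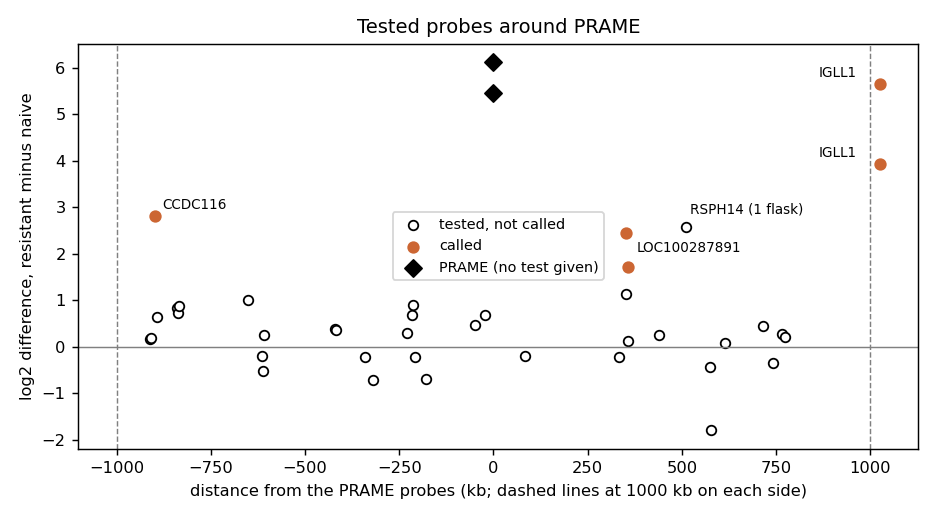
The log2 difference between the lines (vertical axis) is plotted against the distance of tested probes from the PRAME probes in kb, including the 2 IGLL1 probes just past 1000 kb, with called probes filled and without the called neighbor that is not described. The PRAME diamonds stand at 6.11 and 5.45 and the tested probes within 250 kb all stay below 1, and the points of CCDC116, LOC100287891 and the lower PRAME diamond are measured differences from naive signals not well above background.

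In wider windows a smaller share of the genes was called than within 1 Mb. Within 2 Mb 3 of 46 genes (6.52%) were called, all higher. Within 5 Mb 8 of 108 (7.41%) were called, 5 higher and 3 lower. On the whole of chromosome 22, without PRAME, 21 of 338 genes (6.21%) were called, 11 higher and 10 lower, with a median difference of 0.18, beside 6.16% of all genes. MFNG and LGALS2, 14974 and 15075 kb from PRAME, rose by 5.44 and 4.20. In the other direction LRRC75B, 2091 kb from PRAME, was at least 10.0-fold lower, with no signal well above background in the resistant flasks, and RIBC2, at 22937 kb, had a called difference of −4.47, with 1 of the 2 resistant flasks not well above background. These genes were picked after their values were seen, as the called genes of the chromosome with a measured log2 difference of at least 4 in either direction. Copy number was not measured.

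The region before the transcription start of PRAME is shown because DNA methylation and transcription factors there are known to bear on PRAME, although neither was measured on these arrays. RefSeq lists 3 start sites for the gene on GRCh38.p14. The 250 bases before the farthest upstream start, at chr22:22559266-22559515 on the minus strand, hold 9 CG dinucleotides, given in capitals.
PRAME upstream region: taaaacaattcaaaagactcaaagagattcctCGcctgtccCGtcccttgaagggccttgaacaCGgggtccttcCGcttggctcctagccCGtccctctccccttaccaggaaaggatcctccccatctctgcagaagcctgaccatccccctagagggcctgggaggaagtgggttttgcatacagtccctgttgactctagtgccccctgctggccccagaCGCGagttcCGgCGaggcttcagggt
The other start sites have 8 and 4 CG in their 250 bases, and the median over 35116 RefSeq starts was 11. The letters TGGGGA, part of the site described for the zinc finger factor MZF1, were found on either strand in 2 of the 3 regions and in 24.6% of all such regions. CCAAT, the NF-Y letters, was found on either strand in 1 of the 3 and in 32.0% of all. TATAAA was found in none of the 3 and in 10.7% of all. These are matches of letters only.

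The 5 genes below had a profile over the arrays most like that of PRAME, by the root mean square difference of mean-centered log2 values on the 4 arrays among 13335 genes well above background on all arrays. SV2B, a synaptic vesicle glycoprotein, was nearest at a root mean square difference of 0.34, with −2.94 and −2.69 in the naive and 2.68 and 2.74 in the resistant flasks, a difference of 5.52. MFNG, a glycosyltransferase that modifies Notch receptors, followed at 0.36, with −2.27, −1.92, 3.30 and 3.40, a difference of 5.44. Its second probe had a difference of 5.11. In each of them, as on A_23_P166360, the resistant flasks lay closer together than the naive flasks, and naive flask 1 was the lower naive flask.

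TBXA2R, the thromboxane A2 receptor, came next at 0.60 with a difference of 6.99, and SERPINF1, a secreted inhibitor of blood vessel growth, at 0.74 with 4.71. The other TBXA2R probe had a difference of 0.49 and was not called. EPN2, an adaptor of endocytosis, followed at 0.85 with 4.45. With the normexp correction the differences were 4.41 for SV2B, 4.70 for MFNG, 5.89 for TBXA2R, 3.59 for SERPINF1 and 2.72 for EPN2. Without these corrections PRAME on A_23_P166360 had the second highest difference of these 6 genes, after TBXA2R. With the normexp correction PRAME, at 3.90, was also below MFNG and SV2B. With bright backgrounds reset it was again below them, at 4.62 beside 5.06 for MFNG and 4.86 for SV2B. The flasks are few and shared by all genes, and any gene that separates the lines by a similar amount gives such a profile.

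**Figure D3:**
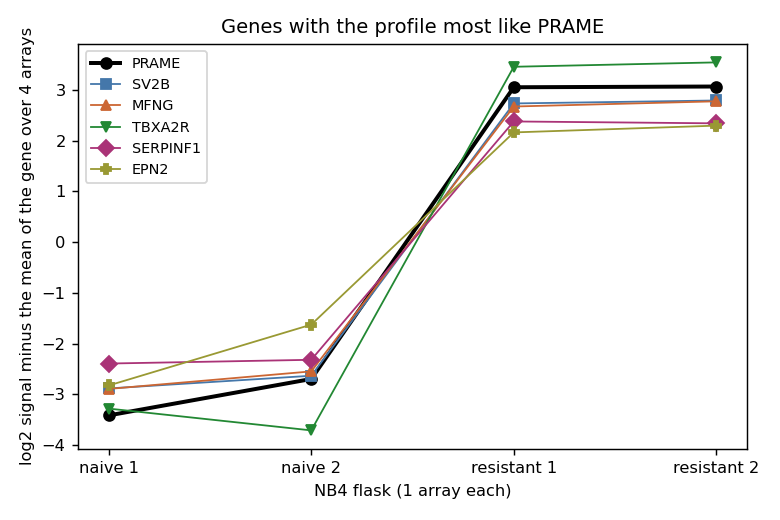
The log2 signal of PRAME (A_23_P166360) and of the 5 genes nearest to it, each minus its own mean over the 4 arrays (vertical axis), is plotted for each flask. All 6 genes are low in both naive flasks and high in both resistant flasks, and TBXA2R has the widest step at 6.99.

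Genes tied to PRAME by family or function were taken from lists. Over all lists, cell type markers included, 242 distinct genes were on the array, 167 were tested and 22 (13.2%) were called, 12 higher and 10 lower, beside 6.16% of all genes. The lists were chosen with earlier results of these data known, and nothing particular to them is read from that share. PRAMEF3, RARRES2, PAGE5, DNMT3L, CYP26B1, CD3D and CD3G were well above background in 1 line only, so that they entered the test through the line where they are high and the filter set their direction. With the normexp correction 0 list genes were called in limma (22 at an unadjusted p below 0.05). Beside 1189 of 28221 probes over the whole array, 24 list genes were called with bright backgrounds reset. PRAMEF3 (0.48), PAGE5 (0.59), CYP26B1 (−0.69), CD3G (−0.22), ELANE (0.84), NANOG (0.69) and CD79B (−0.96) were not among them. Bounds given as at least a fold hold for the processed signals without these corrections.

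Of the PRAME family, 6 of 22 listed genes were on the array. PRAMEF3 was called, at −8.59 and −8.36 in the naive flasks, where it was not well above background, and −5.34 and −5.80 in the resistant flasks, at least 1.62-fold higher (limma adjusted p = 0.00500). PRAMEF1 had a difference of −0.33 and was not called, and the remaining 4 were not well above background on any array. The PRAMEF genes are near-identical copies of each other, so that the member behind a probe is uncertain.

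The list of the CUL2 ligase, its other substrate receptors and partners described for PRAME, such as the NF-Y subunits and the group of OSGEP and TP53RK, held 20 genes. All were tested and 0 of 20 passed limma, beside 6.16% of all genes, so that nothing particular to the list is read from it, and the median difference was 0.16. CUL2, the scaffold, had −0.71, −1.17, −0.88 and −0.63, a difference of 0.19. ELOB, an elongin that joins the substrate receptor to the scaffold, had 5.38, 4.77, 5.14 and 5.28, a difference of 0.14. The values of the lines overlapped for both. ZYG11B, another substrate receptor of CUL2, had the highest difference at 0.99 (limma adjusted p = 0.119), and TP53RK, a kinase of the OSGEP group, the lowest at −0.58.

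Among retinoic acid receptors and the corepressors they recruit, 14 of 16 genes were tested and 0 of 14 were called, beside 6.16% of all genes, so that nothing is read from the count. The median difference was 0.08. RARA, the receptor that is fused to PML in APL, had 1.63, 1.76, 2.05 and 2.05, a difference of 0.36 (limma adjusted p = 0.439). EZH2, the polycomb methyltransferase described as a partner of PRAME, had 4.78, 4.30, 4.38 and 4.64, a difference of −0.03, with the lines overlapping. RXRA, the partner receptor, had the lowest difference at −0.83.

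Of 23 tested retinoic acid targets 19 were not called, 3 (13.0%) were called higher, beside 2.87% of all genes, and 1 (4.35%) lower, beside 3.29%. The filter set the direction of RARRES2 and CYP26B1 among them. Their median difference was 0.05. RARRES2, the gene of the chemoattractant chemerin, was not well above background in the naive flasks (−8.43 and −8.40) and had −3.95 and −3.58 in the resistant flasks, at least 5.63-fold higher (limma adjusted p = 0.00118), and its difference was 0.97 with the normexp correction and 1.12 with bright backgrounds reset. DHRS3, which reduces retinal to retinol, rose by 2.43, with −3.77, −4.86, −1.97 and −1.80 (limma adjusted p = 0.0341), and by 1.35 and 1.51 with these corrections. ITGAM, which encodes CD11b of maturing myeloid cells, rose by 2.01, with −0.79, −0.98, 0.99 and 1.26 (limma adjusted p = 0.0114). In each the resistant flasks were the higher ones. CYP26B1, which breaks down retinoic acid, had −3.92 and −3.97 in the naive flasks and was not well above background in the resistant flasks, at least 5.69-fold lower (limma adjusted p = 0.0177). Its difference was −0.19 with the normexp correction and −0.69 with bright backgrounds reset. Its other probe was not well above background on both arrays of either line.

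Most other cancer-testis antigens, tumor antigens that like PRAME are confined mainly to the testis among normal tissues, gave no signal. Of 62 on the array 41 were not well above background on any array, and of 18 tested 2 (11.1%) were called higher, beside 2.87% of all genes, PAGE5 with a direction set by the filter. The median difference was −0.14. MAGEB2 had −5.28 and −5.17 in the naive and −1.42 and −2.09 in the resistant flasks, a rise of 3.47 (limma adjusted p = 0.00415), which was 1.65 with the normexp correction and 2.08 with bright backgrounds reset. PAGE5 was not well above background in the naive flasks (−6.81 and −6.27) and had −4.75 and −4.30 in the resistant flasks, at least 3.33-fold higher (limma adjusted p = 0.0260). XAGE1D, the brightest member and saturated on 1 array, had a difference of −0.52 and ODF4, the lowest, −0.89, and neither was called.

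Of the enzymes and readers of DNA methylation, with MZF1, all 16 were tested and 2 (12.5%) were called higher, beside 2.87% of all genes, DNMT3L with a direction set by the filter. The median difference was 0.21. DNMT3L, a cofactor of the de novo DNA methyltransferases without activity of its own, was not well above background in the naive flasks (−7.23 and −7.69) and had −3.45 and −2.90 in the resistant flasks, at least 8.46-fold higher (limma adjusted p = 0.00256), and its difference was 1.08 with the normexp correction and 1.22 with bright backgrounds reset. TET2, which oxidizes methylated cytosine, rose by 1.26, with −1.42, −1.44, −0.20 and −0.15 (limma adjusted p = 0.0387), while its second probe, with a difference of 1.58, was not called. The lowest difference was that of DNMT3B, a de novo methyltransferase, with 4.51, 3.55, 2.04 and 2.25, a difference of −1.89 that missed the threshold (limma adjusted p = 0.0569). MZF1 had a difference of −0.09.

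Of 6 genes tied to the PRAME level in leukemic cells in other work, 1 (16.7%) was called, beside 6.16% of all genes. HSPB1, a small heat shock protein, fell by 1.77 (limma adjusted p = 0.0171), with 4.00, 3.71, 2.01 and 2.16, and its other probes fell by 1.76 and 1.70. S100A4, a calcium binding protein, had 4.16, 2.48, 4.60 and 4.85, a difference of 1.41 that was not called and within which the naive flasks differed more than the lines. The median of the list was −0.14.

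Of 15 tested antigens that are targets of immune therapy in leukemia, 2 (13.3%) were called, beside 6.16% of all genes, 1 in each direction, with a median difference of −0.21. ELANE, neutrophil elastase, had a called difference of 2.49, with −5.74, −6.56, −3.66 and −3.66 (limma adjusted p = 0.0169), but 1 naive flask was not well above background and the difference was 0.78 with the normexp correction and 0.84, not called, with bright backgrounds reset. IL3RA, which encodes CD123, fell by 1.74, with 0.94, 1.31, −0.68 and −0.56 (limma adjusted p = 0.0210), and its other probe fell by 1.82. FLT3 had the highest difference at 2.59, with naive flasks at −0.93 and −2.98, and was not called, and WT1 had −0.70.

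PRAME is seen by T cells as peptides on HLA class I, and 3 of the 18 tested genes of this pathway (16.7%) were called lower, beside 3.29% of all genes, with a median difference of −0.43. The count called in this list was 7 with bright backgrounds reset and 0 with the normexp correction. Over the whole array these settings called 1189 and 0 of 28221 probes, in the same order. HLA-B fell by 3.28, with 4.35, 6.10, 2.01 and 1.88 (limma adjusted p = 0.0423), and HLA-C by 3.29, with 4.63, 6.17, 2.14 and 2.08 (limma adjusted p = 0.0297). PSMB9, a subunit of the immunoproteasome, fell by 1.70, with 0.47, 1.18, −0.85 and −0.91 (limma adjusted p = 0.0447). Both naive flasks lay above both resistant flasks in all 3 genes, but both of these HLA probes were saturated on 1 of the 4 arrays, so that the size of their differences is uncertain. The other HLA-B probe, saturated on 0 arrays, had 3.59, 5.97, 0.95 and 0.84. Its difference was −3.89 and it was not called (limma adjusted p = 0.0567). B2M, the invariant chain of HLA class I, had 5.23, 5.50, 5.18 and 5.12, a difference of −0.21. Class I genes are near-identical, so that their probes may share signal.

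**Figure D4:**
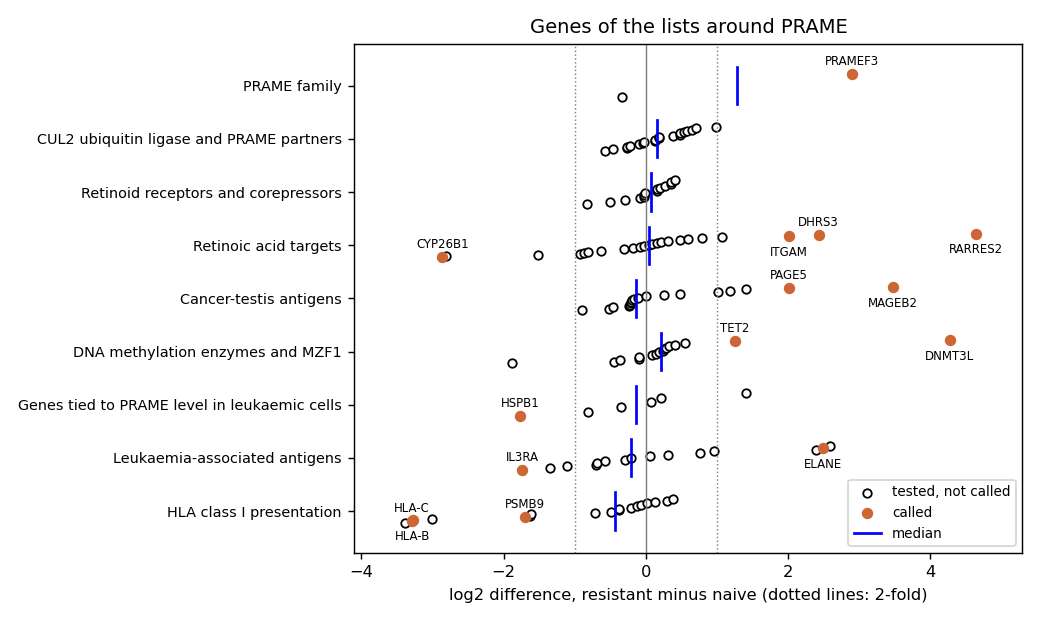
Each tested gene of the 9 lists around PRAME is plotted by its log2 difference between the lines (horizontal axis), with called genes filled and named and a blue line at the median of each list. The ligase and receptor lists hold no called gene, MAGEB2 stands at 3.47, and the points of RARRES2, DNMT3L, PAGE5, PRAMEF3 and CYP26B1 are measured differences from signals not well above background in 1 line, so that their order cannot be read.

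Markers of cells that express PRAME, or that could lie among the cultured cells, were read beside these results. A summed level is the sum of the linear normalized signals of a list, in units of the array's 75th percentile. Of the 11 promyelocyte markers 9 were well above background on all 4 arrays, among them MPO, MYB, CTSG, CEBPA and CD33, while ELANE was so in only 1 naive flask and KIT in 1 naive flask alone. The summed levels were 246 and 231 in the naive and 251 and 292 in the resistant flasks. They are dominated by MYB, MPO and CTSG, saturated on 2, 4 and 2 arrays, so that neither the order of these genes nor a change of the sum can be read. Of 10 tested 3 (30%) were called, beside 6.16% of all genes, AZU1 (1.17) and ELANE higher and ANPEP, which encodes CD13, lower by a log2 difference of −1.83.

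Germ cell markers, 4 of 10 tested, gave summed levels of 0.255, 0.970, 0.791 and 0.708, with POU5F1 the brightest. The only NANOG probe rose by 1.47 (limma adjusted p = 0.0302), but the files place it on chromosome 15 and not at the NANOG gene, so that its target is uncertain, and its difference was 0.67 with the normexp correction and 0.69, not called, with bright backgrounds reset. Of the list 4 markers were not well above background on any array. Melanocyte markers, 5 of 7 tested, had summed levels of 0.408, 0.288, 0.368 and 0.380, with PMEL the brightest and 0 called. Of the marker lists that follow, the counts called were 2 of 7 B lymphoid and 2 of 6 T lymphoid genes, after 1 of 4 germ cell genes, beside 6.16% of all genes. Neither the germ cell nor the melanocyte sum separated the flasks of the lines as PRAME did.

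The B lymphoid list, 7 of 12 tested, had higher sums in the resistant flasks (3.97 and 4.31) than in the naive flasks (2.08 and 1.87). Of its genes IGLL1 rose, CD79B fell by 1.20 and CD79A was the brightest. MS4A1, PAX5, CD22, BLK and VPREB1 were not well above background on any array. The T lymphoid list, 6 of 8 tested, had sums of 1.78 and 2.45 in the naive flasks and 0.167 and 0.198 in the resistant flasks. Of its genes CD3D was at least 169-fold lower (a difference of −8.29, which was −3.72 with the normexp correction and −4.77 with bright backgrounds reset) and CD3G at least 2.19-fold lower (a difference of 0.16 with the normexp correction), and CD3E had a difference of −0.01. Erythroid markers, 8 of 12 tested with EPOR the brightest, had sums of 0.663, 0.739, 0.959 and 0.877 and 0 called. Stromal markers, 3 of 9 tested, had sums of 60.8, 56.9, 23.5 and 32.0, almost all from VIM. The VIM probe behind them, saturated on 1 array, had a difference of −1.12 and was not called, while 1 of the 2 VIM probes tested was. The part of other cells in the PRAME difference was not tested.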

How the data were processed

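RNA of 2 naive and 2 ATO resistant NB4 flasks was measured on 4 Agilent arrays. From Feature Extraction (10.5.1.1 for the grid, hg19 in the header) the authors deposited background-subtracted intensity values, and from GeneSpring log2 values after a shift to each array's 75th percentile. Arrays have no read depth, and their number limits the precision. Between 27922 and 28244 probes per array were well above background.

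Here log2 was taken of the processed signal, control and outlier spots were left out, spots of a probe were averaged and the 75th percentile was subtracted. The values lay within 0.01 of those deposited, once centered, on at least 40839 probes of each array. Lines were compared in limma 3.58.1 (R 4.3.3), tested on simulated data, with Benjamini-Hochberg adjusted p-values over all probes tested. Replicates are separate flasks of the naive line and of the resistant clone. Current symbols came from RefSeq (GRCh38.p14) for 26222 probes, and the array's name was kept otherwise. Distances are from the span of the PRAME probes.

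PRAME, its neighbors and the lists were chosen with earlier results of these data known. Named genes were PRAME, the 5 nearest measured neighbors on each side, called genes of the window and lists, the highest and lowest of a list, the brightest members and the 5 genes most like PRAME. Further neighbors, members such as CUL2, RARA, EZH2, MZF1, WT1, B2M, CD33 and CD3E, and IGLL1 beyond the window were added after their values were seen. Some genes that the rule names are not reported here.

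The alternatives were the background correction, normalization, filter, variance model, the methods' t-test, the call rule, the window, the probe of a gene, a block for the replicate number, leaving out each flask, and the deposited table.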

Additional observations from a re-analysis of the deposited data

How the results depend on the processing

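PRAME was higher in the resistant line in every alternative run. Its log2 difference of 6.11 was 3.90 with the normexp correction and 4.62 with bright backgrounds reset. Leaving out a flask gave 5.76 to 6.47, and the mean over both probes gave 5.78. The alternatives of normalization and the deposited table gave 6.11 to 6.19.

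The 3 genes called within 1 Mb became 0 with the normexp correction (1 at an unadjusted p below 0.05 in limma), 1 with bright backgrounds reset, 1 with no filter on dim probes, 0 with the filter on all 4 arrays (3 at an unadjusted p below 0.05 in limma), 0 with the methods' t-test after adjustment (5 at an unadjusted p below 0.05) and 1 in a window of 0.5 Mb. Leaving out a flask gave 1 to 4, the 1 being RSPH14 without resistant flask 2. The 22 called genes of the lists became 0, 13, 11 and 0 with the normexp correction, no filter, the filter on all 4 arrays and the adjusted methods' t-test (22 and 36 at an unadjusted p below 0.05 for the normexp correction and the t-test), and 43 by a 2-fold change alone. Over all probes the 1487 calls became 0 with normexp (929 at an unadjusted p below 0.05), 760 with the filter on all 4 arrays, 0 with the adjusted t-test (4138) and 3463 by fold alone. Calls over all probes numbered 1189 with bright backgrounds reset, and 1004 of 40997 probes with no filter on dim probes. At an unadjusted p below 0.05 and 2-fold the methods' t-test gave 1833. Leaving out a flask gave 7 to 50 list genes and 728 to 4538 probes. List genes numbered 42 and 50 without naive flask 1 or 2, and 7 without either resistant flask. Probes numbered 3731 and 4538, and 743 and 728, in the same order. A line left with a single flask is assumed to vary like the other.

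With the replicate number as a block, 1375 probes, 19 list genes and 2 genes within 1 Mb were called. Deviations of same-numbered flasks correlated at 0.12 over 2 pairs, and nothing in the labels pairs them. CD3G reversed to 0.16 with the normexp correction. Of the other values of named genes, 366 kept direction and call and 133 kept direction but not the call. Apart from the filters, the flasks left out and the window, the cause was not tested. The median over all probes shifted by 0.10 with scale normalization and by 0.15 with normexp. No block for the slide was run, since 1 slide held all arrays. Probes not well above background give bounds only, and 2 flasks a line limit every call.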
